A study of Mus musculus with 30 samples.

Results

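The transcription factors described here are grouped as factors of the endocrine progenitor stage of the pancreas: Neurog3, Sox9, Pax4, Insm1, Myt1, Sox4, Sox11, Hhex and Gbx2. They were taken by symbol, and all 9 were found among the 39017 genes counted. Of these, 6 had enough reads to be tested and 3, Neurog3, Sox9 and Hhex, did not. RNA was sequenced from 5 lines of βTC3, an insulin-producing cell line from a mouse islet tumour. Each line carried a doxycycline (DOX)-inducible piggyBac plasmid, and all cells of all groups received 1 µg/ml DOX for 24 hours. The activin B arms also received 50 ng/ml activin B, a TGF-β family ligand, for 24 hours, and the other arms DOX alone. ALK7 is a type I receptor through which activin B can act. The plasmids carried ALK7 (PB-33 backbone), a dominant-negative ALK7 (ALK7-DN, PB-33), a single hairpin against ALK7 (sh2, PB-31), a pair of hairpins (sh1/2, PB-31) or a control insert (PB-33). No line with an empty PB-31 plasmid was among the samples, so the control differs from both hairpin lines in backbone as well as hairpin. There were 3 libraries in each of the 10 groups, plated as wells, and p-values therefore measure the spread between these wells, which may be technical.

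In the developing pancreas, Sox9 maintains the progenitor epithelium, and Notch signalling through Hes1 holds Neurog3 down. Where Neurog3 rises, a cell leaves the cycle and commits to an endocrine fate, and Neurog3 then turns on Pax4, Insm1, Myt1 and Neurod1. Pax4 favours beta and delta over alpha cells. Insm1 and Myt1 are zinc finger proteins needed for full endocrine differentiation, and both stay on in mature islets. Sox4 and Sox11 are closely related SoxC factors, of which Sox4 is needed for normal endocrine cell formation in the mouse. Hhex acts early in the foregut and later maintains delta cells. Gbx2 is a homeobox factor best known from the midbrain-hindbrain boundary. Activin signals through receptor-activated SMAD2 and SMAD3, which bind short CAGAC elements in DNA.

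Promoter windows (250 bases before to 50 after the start site) were available in RefSeq for 6 of the 9 factors, on GRCm38.p6. Those of Sox4, Myt1 (the first of 3 start sites) and Gbx2 are shown because these 3 genes moved with activin B in every line, Sox4 and Myt1 upward and Gbx2 downward. Capitals mark CAGAC on either strand (CAGAC or GTCTG), and each sequence runs 5′ to 3′ on the gene's own strand. The Sox4 window is chr13:28953650-28953949 (minus strand), the Myt1 window chr2:181763082-181763381 (plus strand) and the Gbx2 window chr1:89931127-89931426 (minus strand).
Sox4: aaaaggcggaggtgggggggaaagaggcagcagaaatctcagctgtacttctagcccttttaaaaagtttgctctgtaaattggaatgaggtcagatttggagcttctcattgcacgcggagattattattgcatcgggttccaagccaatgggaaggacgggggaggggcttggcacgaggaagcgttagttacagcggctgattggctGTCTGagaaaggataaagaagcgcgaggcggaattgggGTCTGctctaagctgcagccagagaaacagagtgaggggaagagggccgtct
Myt1: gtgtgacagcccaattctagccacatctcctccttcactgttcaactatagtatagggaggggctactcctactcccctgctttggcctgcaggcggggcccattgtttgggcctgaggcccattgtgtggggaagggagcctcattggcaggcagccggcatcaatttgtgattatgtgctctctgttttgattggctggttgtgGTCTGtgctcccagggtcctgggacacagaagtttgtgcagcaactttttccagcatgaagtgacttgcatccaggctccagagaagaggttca
Gbx2: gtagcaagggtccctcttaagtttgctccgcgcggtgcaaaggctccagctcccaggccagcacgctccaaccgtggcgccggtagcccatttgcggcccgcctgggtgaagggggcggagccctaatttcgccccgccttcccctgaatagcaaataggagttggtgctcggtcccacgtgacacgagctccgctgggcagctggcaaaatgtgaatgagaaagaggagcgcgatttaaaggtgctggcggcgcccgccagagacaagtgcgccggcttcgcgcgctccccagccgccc
The Sox4 window held 2 matches, 40 and 2 bases before the start site, counted to the first base of the match. In the Myt1 window there was 1 match, 44 bases before the start site, and in the Gbx2 window 0. CAGAC occurred in 49.6% of all 32851 promoter windows of this length, so its presence is common. The windows of Sox11, Neurog3 and Hhex held 0 matches. The FOXH1 motif AATNNACA, searched on both strands, matched 1 time in the Sox4 window and in none of the others shown, against 12.2% of all windows holding it. The E-box CANNTG, the kind of element bound by Neurog3 and Neurod1, matched 4 times in the Gbx2 window, 1 time in the Sox4 window and 0 times in the Myt1 window, and 72.3% of all windows held it. For Myt1 these counts hold for the first start site: the window of the second held 0 CAGAC, 2 FOXH1 and 2 E-box matches, and that of the third held 1 CAGAC, 0 FOXH1 and 1 E-box match. Pax4, Insm1 and Sox9 are without a window.

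Library totals ran from 18904884 to 34740789 counts, and values below are CPM (counts scaled to the library total). The targeted gene, Acvr1c, which encodes ALK7, averaged 80.6 CPM with activin B and 154 CPM with DOX alone in the line labelled ALK7, against 101 CPM with activin B and 165 CPM with DOX alone in the control, so no excess of Acvr1c reads accompanied that label. The same held for the line labelled ALK7-DN, with 107 CPM with activin B and 161 CPM with DOX alone. Whether reads of the plasmid's insert would be counted as Acvr1c is not given in the sources used here. In the hairpin lines Acvr1c was lower, with log2 fold changes of -1.24 ± 0.11 (SE) in sh2 and -1.91 ± 0.11 in sh1/2 against control, both with activin B (edgeR adjusted p 1.87e-08 and 1.6e-12). Smad7, a feedback inhibitor that SMAD signalling induces, was higher with activin B in all 5 lines, by 3.26-fold in sh1/2 and by 7.55-fold in the line labelled ALK7, the lowest and highest values. Per the labels, batch 2 held 6 libraries, the activin B arm of the line labelled ALK7-DN and the DOX arm of sh2, and batch 1 the other 24. In these lines batch and treatment cannot be told apart. Of the 30 libraries, 3 were skewed by GC content: in sh1/2 DOX replicates 1 and 3 and control activin B replicate 2 the deviation from the mean over libraries fell with the GC content of the gene (Spearman -0.49, -0.53 and -0.57 across genes). Without these 3 libraries the log2 response in sh1/2 was 2.06 for Pax4, 0.90 for Sox4, 0.73 for Myt1 and -1.09 for Gbx2. That of Insm1 was 0.26. These sh1/2 values rest on 1 library with DOX alone, so effect sizes only are given. In the control the log2 response was 2.96 for Pax4, 1.35 for Sox4, 0.83 for Myt1, 0.45 for Insm1 and -2.13 for Gbx2, all past the test. Comparisons between lines that lost or gained a call without the 3 libraries are named beside their values. For sh1/2 against control with DOX alone, effect sizes only are given.

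The label of endocrine progenitor was checked against markers. Beta cell genes made up 11200 to 17400 CPM with activin B and 11500 to 22300 CPM with DOX alone, summed over 10 markers. Neurog3, the factor that defines the endocrine progenitor, had 1 read in all 30 libraries together. Sox9, which marks the progenitor and duct epithelium, had 24 reads, and Hhex 21. The reads thus go against the label of a progenitor cell, and the factors are described by name as transcripts of a beta tumour line. Duct markers summed to 42.4 to 68.1 CPM with activin B and 15.4 to 30.4 CPM with DOX alone, with Krt7 the most abundant and Krt19, Sox9, Spp1 and Car2 below 1 CPM in every library. Alpha cell markers, 6 in number, summed to 143 to 429 CPM with activin B and 210 to 569 CPM with DOX alone, with Irx1 below 1 CPM in every library. Delta cell markers summed to 3.13 to 25.7 CPM with activin B and 11.2 to 54.8 CPM with DOX alone, with Hhex below 1 CPM in every library. The part of duct, alpha and delta markers in the results was not tested. Acinar, stromal, endothelial, immune and glial lists summed to at most 20.1 CPM in any library.

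Per kilobase of exon, the factors fell into a wide range of levels. With activin B, Myt1 averaged 73.5, Insm1 69.5, Pax4 55.1 and Sox4 19.0 CPM per kb over 15 libraries. With DOX alone Insm1 came first at 55.0 CPM per kb, before Myt1 at 42.6, Pax4 at 9.05 and Sox4 at 7.65. Gbx2 was the one tested factor with a lower level under activin B, at 0.601 CPM per kb, against 2.06 CPM per kb with DOX alone. Sox11 stood at 0.0371 CPM per kb with activin B and 0.0254 CPM per kb with DOX alone, and the remaining 3 lay below it.

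**Figure D1:**
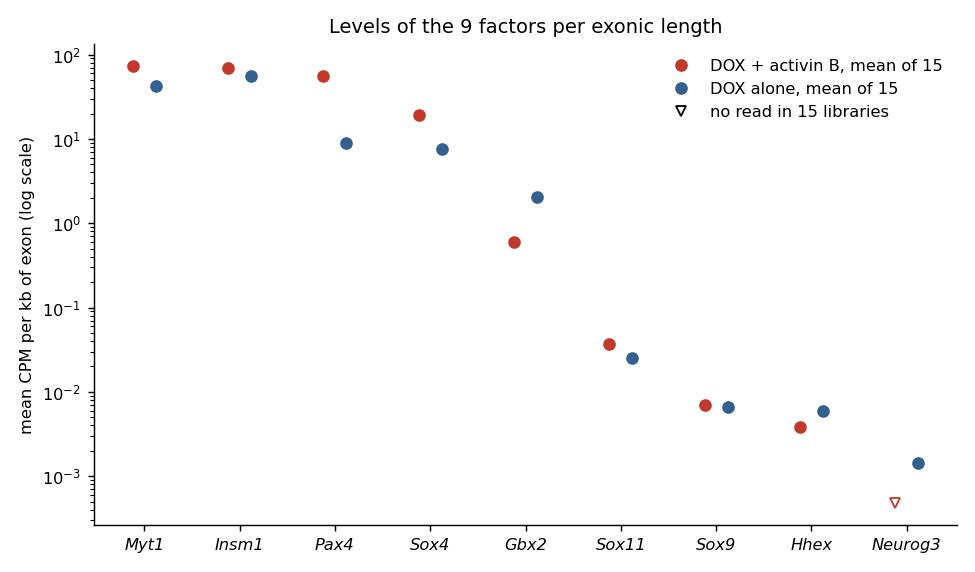
Mean level of each of the 9 factors in CPM per kilobase of exon (log axis), averaged over the 15 libraries with activin B (red, left) and the 15 with DOX alone (blue, right); the open triangle stands for a group without a read. Myt1, Insm1, Pax4 and Sox4 lie well above Gbx2 and Sox11, and Sox9, Hhex and Neurog3 lie lowest.

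The first question was whether activin B changed these factors within each line. Over the lines whose arms were both in batch 1 (ALK7, sh1/2 and control), the mean response was higher in Pax4, Sox4, Myt1 and Insm1, lower in Gbx2 and not past the test in Sox11. The 5 of 6 tested factors called (edgeR quasi-likelihood test, Benjamini-Hochberg adjusted p below 0.05 over 15627 genes) compare with 39.1% of all genes tested, 19.4% higher and 19.7% lower. The median log2 fold change was 0.73 over the 6, beside -0.003 over all genes. Called higher were 4 of 6 in the line labelled ALK7 (13% of all genes), 4 in that labelled ALK7-DN (8.48%), 4 in sh2 (10.7%), 3 in sh1/2 (17.5%) and 4 in the control (10.7%). These were Pax4, Sox4 and Myt1 and, outside sh1/2, Insm1. Called lower was Gbx2, 1 of 6 in each line, beside 12.3% of all genes in the line labelled ALK7, 7.62% in that labelled ALK7-DN, 8.91% in sh2, 19.1% in sh1/2 and 9.66% in the control. In either direction, the share of all genes called was 25.3% in the line labelled ALK7, 16.1% in that labelled ALK7-DN, 19.6% in sh2, 36.6% in sh1/2 and 20.3% in the control. In bulk RNA, fewer or more cells that express a gene and less or more RNA per cell cannot be told apart. Whether the arms overlapped is described below for the factors only. The share of all genes with arms apart was not counted, so such statements are descriptions.

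**Figure D2:**
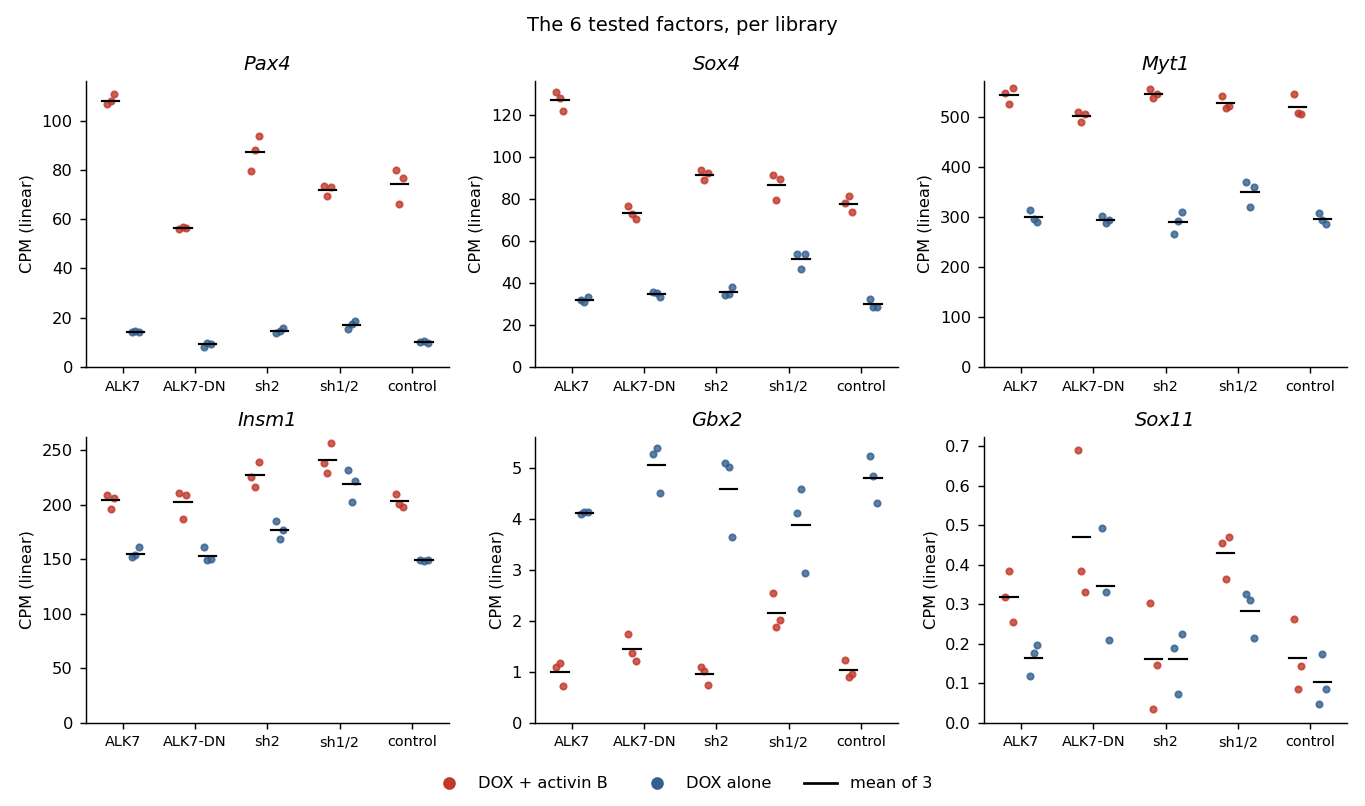
CPM (linear axes) of the 6 tested factors in each library, by line, with activin B (red, left) and with DOX alone (blue, right); points are libraries and bars the mean of 3. The arms are apart in every line for Pax4, Sox4, Myt1 and Gbx2, overlap in sh1/2 for Insm1 and mostly overlap for Sox11. How many of all genes had arms apart was not counted.

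Pax4 (mm10 chromosome 6, 28442334 to 28449353, minus strand) had the largest response of the 9. Cells of the line labelled ALK7 had 107, 108 and 111 CPM with activin B against 14.2, 14.5 and 14.2 CPM with DOX alone. The line labelled ALK7-DN had 55.9, 57.0 and 56.6 CPM with activin B and 8.19, 9.77 and 9.48 CPM with DOX alone. Every activin B library of these lines was above every DOX library. In sh2, Pax4 read 79.7, 88.2 and 93.7 CPM with activin B against 13.9, 14.8 and 15.7 CPM with DOX alone. For sh1/2 the values were 73.4, 69.5 and 72.9 CPM with activin B and 15.4, 17.3 and 18.7 CPM with DOX alone. Control cells had 80.2, 66.1 and 76.9 CPM with activin B and 10, 10.6 and 9.59 CPM with DOX alone. No value with activin B, in any line, was as low as any value with DOX alone: the lowest of the 15 was 55.9 CPM and the highest of the other 15 was 18.7 CPM. The fold changes were 7.58 in the line labelled ALK7, 6.18 in that labelled ALK7-DN, 5.90 in sh2, 4.20 in sh1/2 and 7.39 in the control, all past the test, with the highest adjusted p of 9.92e-16 in sh1/2.

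Sox4 (chromosome 13, 28948919 to 28953713, minus strand) had the next largest increase. The line labelled ALK7 gave 131, 128 and 122 CPM with activin B, against 31.9, 31.0 and 33.2 CPM with DOX alone. That labelled ALK7-DN gave 76.8, 72.6 and 70.4 CPM with activin B and 35.6, 35.2 and 33.1 CPM with DOX alone. The activin B libraries of the line labelled ALK7 were the highest of all 30. In sh2, Sox4 counted 93.6, 89.1 and 92.2 CPM with activin B against 34.1, 34.7 and 38.1 CPM with DOX alone. In sh1/2 it counted 91.3, 79.3 and 89.4 CPM with activin B and 53.7, 46.6 and 53.8 CPM with DOX alone. The control had 78.0, 81.5 and 73.6 CPM with activin B and 32.3, 28.5 and 28.6 CPM with DOX alone. The arms did not overlap in any line, and the DOX libraries of sh1/2 were above those of the other lines. The change was 3.97-fold in the line labelled ALK7, 2.11-fold in that labelled ALK7-DN, 2.57-fold in sh2, 1.69-fold in sh1/2 and 2.61-fold in the control, each past the test (highest edgeR adjusted p 3.64e-09, in sh1/2). A gene on the opposite strand, Gm26735, overlaps Sox4 and moved the same way, averaging 1.08 CPM with activin B and 0.305 CPM with DOX alone in the control. The strand setting of the counting is not given in the sources used here, so reads of this pair cannot be told apart, although Gm26735 had a small fraction of the reads.

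Myt1 (chromosome 2, 181763332 to 181827797, plus strand) was the most abundant of the 9 by CPM. It averaged 544 ± 16.5 CPM with activin B and 300 ± 12.5 CPM with DOX alone in the line labelled ALK7 (SD, n = 3 each). In the line labelled ALK7-DN the means were 502 ± 11 CPM with activin B and 295 ± 7.24 CPM with DOX alone. In sh2 they were 547 ± 9.22 CPM with activin B and 290 ± 21.8 CPM with DOX alone. Over those lines Myt1 with activin B spanned a narrow range, and the other lines fell in it. sh1/2 cells had 542, 518 and 523 CPM with activin B against 370, 320 and 360 CPM with DOX alone. Control cells had 546, 508 and 507 CPM with activin B against 308, 295 and 287 CPM with DOX alone. With activin B the 15 values lay between 490 and 558 CPM, a 1.09-fold range of line means, against 267 to 370 CPM with DOX alone. The log2 fold change was 0.86 in the line labelled ALK7, 0.77 in that labelled ALK7-DN, 0.92 in sh2, 0.59 in sh1/2 and 0.81 in the control, each with an SE of 0.05 and all past the test.

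Insm1 (chromosome 2, 146221921 to 146225020, plus strand) changed least of the called factors. Cells of the line labelled ALK7 had 209, 196 and 206 CPM with activin B and 152, 154 and 161 CPM with DOX alone. Control cells had 210, 201 and 198 CPM with activin B and 149, 148 and 149 CPM with DOX alone. In sh1/2 the arms overlapped, at 238, 229 and 257 CPM with activin B and 232, 202 and 222 CPM with DOX alone. Thus the arms were apart in the line labelled ALK7 and the control, as in that labelled ALK7-DN (187 to 211 CPM with activin B, 149 to 161 CPM with DOX alone) and sh2 (216 to 239 CPM with activin B, 168 to 185 CPM with DOX alone). The change was 1.31-fold in the line labelled ALK7, 1.32-fold in that labelled ALK7-DN, 1.28-fold in sh2 and 1.36-fold in the control, all past the test. In sh1/2 it was 1.10-fold, with an edgeR adjusted p of 0.0592. Insm1 has the highest GC content of the 9, 62.0%. With a correction of each library for GC content its log2 change was 0.10 in the line labelled ALK7 (adjusted p 0.742), 0.11 in the mean response (0.453) and -0.47 in sh1/2 (0.0616), while it was 0.69 in the control, 0.54 in the line labelled ALK7-DN and 0.52 in sh2, still past the test there.

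Gbx2 (chromosome 1, 89927956 to 89931179, minus strand) moved the other way, at a low level. The line labelled ALK7 had 1.08, 1.16 and 0.726 CPM with activin B against 4.10, 4.13 and 4.13 CPM with DOX alone. In the line labelled ALK7-DN there were 1.74, 1.37 and 1.2 CPM with activin B and 5.28, 5.38 and 4.51 CPM with DOX alone. Every DOX library of these lines was above every activin B library. In sh2 the values were 1.08, 1.02 and 0.732 CPM with activin B and 5.10, 5.01 and 3.64 CPM with DOX alone. sh1/2 cells had 2.54, 1.87 and 2.02 CPM with activin B and 4.12, 4.58 and 2.94 CPM with DOX alone. The control had 1.22, 0.9 and 0.956 CPM with activin B and 5.24, 4.84 and 4.31 CPM with DOX alone. Over all lines the highest value with activin B, 2.54 CPM, was below the lowest with DOX alone, 2.94 CPM, and both were from sh1/2. The log2 fold change was -2.05 ± 0.20 in the line labelled ALK7, -1.81 ± 0.19 in that labelled ALK7-DN, -2.28 ± 0.20 in sh2, -0.87 ± 0.18 in sh1/2 and -2.21 ± 0.20 in the control (SE), each past the test. D130058E05Rik, a gene on the opposite strand that overlaps Gbx2, averaged 0.242 CPM with activin B and 2.22 CPM with DOX alone in the control, and reads of the pair cannot be told apart.

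Sox11 (chromosome 12, 27334264 to 27342574, minus strand) had 228 reads in all. Its values ran from 0.0353 to 0.692 CPM with activin B and from 0.0481 to 0.494 CPM with DOX alone. The activin B libraries were above the DOX libraries in the line labelled ALK7 (7 to 12 reads with activin B, 3 to 5 with DOX alone) and in sh1/2 (13 to 14 reads with activin B, 4 to 10 with DOX alone), and overlapped them in the others. No response of Sox11 passed the test within a line. The mean response was a log2 fold change of 0.72 ± 0.30 (SE, edgeR adjusted p = 0.0623), with a 95% interval of 0.10 to 1.34. A count of 3 reads corresponds to 0.0864 to 0.159 CPM in these libraries, so the depth allows no closer comparison of its lines.

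Sox9, Hhex and Neurog3 were not tested. Sox9 (chromosome 11, 112782224 to 112787760, plus strand) had reads in 9 of 30 libraries and at most 6 in a library, and the libraries with reads came from both arms. Hhex (chromosome 19, 37434810 to 37440731, plus strand) had reads in 12 of 30 libraries and at most 5 in a library. Neurog3 (chromosome 10, 62133090 to 62134763, plus strand) had 1 read, in an sh1/2 library with DOX alone, and 0 in the 15 libraries with activin B. A count of 0 in a library allows up to 3 counts, or 0.0864 to 0.159 CPM, and these limits cover counting error only. Hhex had 1, 1 and 0 reads with activin B in sh1/2, against 3, 5 and 2 reads with DOX alone. These arms did not overlap, but the counts are low, the difference was not tested and the share of all genes with arms apart was not counted.

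**Figure D3:**
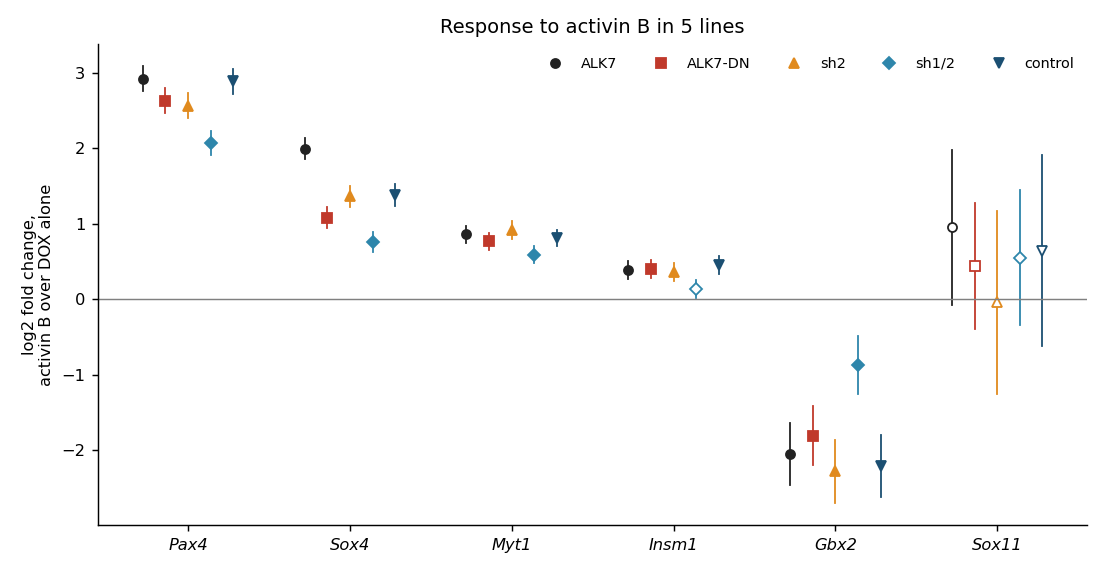
Log2 fold change of activin B over DOX alone for the 6 tested factors in the line labelled ALK7, that labelled ALK7-DN, sh2, sh1/2 and control; bars are 95% intervals and open symbols did not pass the test. In sh1/2 the response of Pax4 (2.07), Sox4 (0.76), Myt1 (0.59), Insm1 (0.14) and Gbx2 (-0.87) is the one nearest to 0 among the 5 lines.

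The next comparison asked whether the response differed from that of control cells, as an interaction term. In the line labelled ALK7 the Sox4 response was larger by 0.60 ± 0.09 on the log2 scale (SE, edgeR adjusted p 0.00995). Sox4 was the 1 factor of 6 called there, against 0.0256% of all genes (4 genes, 0.0192% higher and 0.0064% lower). The other 5 had differences of -0.06 to 0.31, with adjusted p of 0.765 or more, and that of Pax4, 0.04, had a 95% interval of -0.19 to 0.27. Sox4 was no longer past the test in a fit of only the 4 groups compared (0.60, adjusted p 0.172), nor without control DOX replicate 1 (0.54, 0.0839), ALK7 DOX replicate 2 (0.58, 0.0654) or ALK7 activin B replicate 1 (0.58, 0.0543).

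In sh1/2 the responses of 4 of 6 factors were called smaller in size than in the control, that is, 3 with a negative and 1 with a positive difference. Of all genes 17.7% were called, 9.22% negative and 8.49% positive. The differences, sh1/2 minus control, were -0.81 ± 0.11 for Pax4 (edgeR adjusted p 0.000155), -0.63 ± 0.09 for Sox4 (0.000299), -0.31 ± 0.08 for Insm1 (0.0266) and 1.34 ± 0.27 for Gbx2 (0.00507), with SE. Myt1 gave -0.22 ± 0.08, with an adjusted p of 0.0501, and Sox11 -0.09 ± 0.67. In this contrast the difference correlated with GC content over all genes (Spearman 0.66, across genes, which are not independent replicates). Without the 3 GC-skewed libraries 1 factor remained past the test, Pax4, and the differences were -0.45 for Sox4 (adjusted p 0.0621), -0.20 for Insm1 (0.897) and 1.04 for Gbx2 (0.254). That fit left 1 sh1/2 library with DOX alone, which is taken to vary like the other groups. A fit of only the 4 groups compared also called 1 factor, Pax4. Insm1 also lost its call without any one of sh1/2 DOX replicate 1, sh1/2 DOX replicate 3, sh1/2 activin B replicate 2, control activin B replicate 2 and control DOX replicate 1, with a lowest difference of -0.32 and a highest of -0.26 over them. With the GC correction the Gbx2 difference was 0.77 (adjusted p 0.0408), that of Pax4 -1.09 (2.4e-05) and that of Insm1 -1.15 (0.00929), so that the Insm1 difference lay between -1.15 and -0.20 over these settings.

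In the line labelled ALK7-DN and in sh2 no factor's response was called different from the control by edgeR or DESeq2. At an unadjusted p below 0.05 there were 2 in ALK7-DN, Pax4 (-0.26) and Sox4 (-0.30), and 1 in sh2, Pax4 (-0.32). Of all 15627 genes, 342 in ALK7-DN and 527 in sh2 had an unadjusted p that low. After adjustment the test called 0% of all genes in ALK7-DN and 0.0128% in sh2. The 95% intervals, which take no account of batch, were -0.49 to -0.03 in ALK7-DN and -0.55 to -0.10 in sh2 for Pax4, and -0.50 to -0.11 in ALK7-DN and -0.21 to 0.17 in sh2 for Sox4. A batch shift was also taken from the hairpin lines, on the assumption that sh2 and sh1/2 share the same activin B response. That assumption was not tested, and any difference between their responses enters the shift. The log2 responses were 2.56 in sh2 and 2.07 in sh1/2 for Pax4, and -2.28 and -0.87 for Gbx2. With this shift the difference in ALK7-DN was 0.23 for Pax4, 0.30 for Sox4 and -1.01 for Gbx2, with none called. The activin B responses of Pax4, Sox4, Myt1, Insm1 and Gbx2 were called in the lines labelled ALK7-DN and sh2, where batch and treatment cannot be told apart. Under the same assumption the log2 response in the line labelled ALK7-DN was 3.12 for Pax4, 1.69 for Sox4, 1.09 for Myt1, 0.62 for Insm1 and -3.22 for Gbx2. All 5 were called in that fit, which cannot tell batch from a difference between the hairpin lines.

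Lines were then compared within an arm, where both were in batch 1. With activin B, 2 of 6 factors were higher in the line labelled ALK7 than in the control (of all genes 4.53% were called, 2.09% higher and 2.44% lower): Pax4 by a log2 fold change of 0.54 ± 0.07 (edgeR adjusted p 4.97e-05) and Sox4 by 0.71 ± 0.06 (2.48e-07). With DOX alone 1 of 6 was higher there, Pax4 by 0.50 ± 0.08 (adjusted p 0.000825; of all genes 1.98% were called, 1.03% higher and 0.953% lower), while Sox4 differed by 0.10, with an interval of -0.03 to 0.24. Pax4 was thus higher in both arms of the line labelled ALK7, and Sox4 passed the test with activin B. In a fit of only the 2 groups compared Pax4 with activin B had 0.53 and an adjusted p of 0.0587. Under DOX alone no factor was called in the line labelled ALK7-DN by edgeR or DESeq2 (0.966% of all genes, 0.378% higher and 0.589% lower). At an unadjusted p below 0.05 there were 2, Sox4 (0.22) and Sox11 (1.65), beside 1319 of all 15627 genes. Sox11 rests there on 31 reads in the line labelled ALK7-DN and 8 in the control.

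In sh1/2 with DOX alone 4 of 6 factors were higher than in the control, beside 38% of all genes called, 19.4% higher and 18.6% lower. The log2 fold changes were 0.76 ± 0.08 for Pax4, 0.79 ± 0.07 for Sox4, 0.56 ± 0.06 for Insm1 and 0.24 ± 0.05 for Myt1, and Gbx2 had -0.29 ± 0.18 (SE, edgeR adjusted p 0.203). Without the 3 GC-skewed libraries, which leaves 1 sh1/2 library with DOX alone, Pax4 had 0.78, Sox4 0.64, Insm1 0.44 and Myt1 0.10. With the GC correction Insm1 had 1.00, and 1.24 with the replicate block as well. With activin B 3 of 6 were higher in sh1/2 (of all genes 35.2% were called, 16.9% higher and 18.3% lower): Gbx2 by 1.04 ± 0.20, Insm1 by 0.25 ± 0.06 and Sox11 by 1.29 ± 0.46, while Pax4 (-0.05), Sox4 (0.16) and Myt1 (0.02) did not pass. Sox11 rests on 13 to 14 reads per sh1/2 library against 2 to 9 in the control and lost its call without the skewed libraries (1.04, adjusted p 0.134), as it did without control activin B replicate 2 or 3 or sh1/2 activin B replicate 1 or 3. Insm1 had -0.15 in this contrast with the GC correction, not past the test. In sh2 with activin B 1 of 6 was higher, Sox4 by 0.24 ± 0.06 (edgeR adjusted p 0.0189; of all genes 9.23% were called, 3.06% higher and 6.18% lower), and Pax4 had 0.23 (0.0508). The Sox4 call was lost without control activin B replicate 3 (0.20, adjusted p 0.107), sh2 activin B replicate 1 (0.22, 0.0747) or sh2 activin B replicate 3 (0.23, 0.0643). Thus in sh1/2 the DOX-alone levels of Pax4 and Sox4 were above those of the control. No difference in their activin B levels passed the test in the fit of all libraries. That of Sox4 passed it without the skewed libraries (0.19). It ran from 0.12 to 0.22 when each library was left out in turn, and 2 to 4 of the 6 factors were then called.

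**Figure D4:**
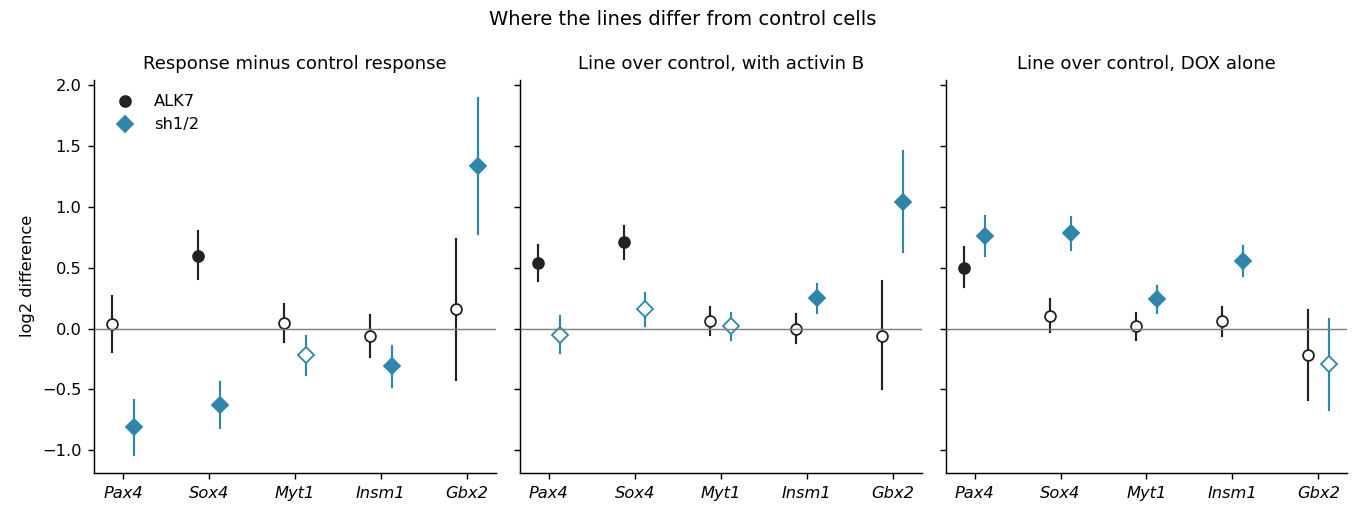
Log2 differences from control cells for the line labelled ALK7 and for sh1/2: the difference of the activin B response (left), the lines with activin B (middle) and with DOX alone (right); bars are 95% intervals and open symbols did not pass the test. Sox4 differs in the line labelled ALK7 with activin B (0.71) and not with DOX alone (0.10), while in sh1/2 Pax4 and Sox4 differ with DOX alone (0.76 and 0.79).

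Genes around these factors were read from 4 further lists, chosen like the factors with earlier results of these data known. Changes are log2 fold changes of the mean response over the line labelled ALK7, sh1/2 and the control, with SE, unless a line is named. Of the Notch pathway, 24 of 24 genes were tested, and in the mean response 11 were higher, 2 lower and 11 not called (19.4% and 19.7% of all genes were called higher and lower), with a median of 0.16. Dll4, a Notch ligand, rose by 2.32 ± 0.09. Control cells had 5.95 ± 1.24 CPM of it with activin B and 1.10 ± 0.154 CPM with DOX alone, a log2 change of 2.43. Hes6, which opposes Hes1, rose by 1.27 ± 0.05, and in the control by 1.17 (64.9 ± 6.01 CPM with activin B, 28.8 ± 1.37 CPM with DOX alone). Hes1, the Notch effector that represses Neurog3, rose by 0.86 ± 0.08, and in the control by 0.83 (3.83 ± 0.184 CPM with activin B, 2.14 ± 0.153 CPM with DOX alone). Lfng, a glycosyltransferase that tunes Notch receptors, fell by 1.10. Its log2 change was -0.96 in the line labelled ALK7, -0.83 in sh1/2 and -1.51 in the control, where it had 3.16 ± 0.590 CPM with activin B and 9.11 ± 1.05 CPM with DOX alone. Of the pathway genes named here, Dll4, Hes6 and Hes1 thus rose and Lfng fell. With the GC correction 10 of the 24 were higher and 3 lower, with a median of 0.12.

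Factors of the multipotent pancreatic progenitor gave 12 tested of 18, of which 5 were higher, 3 lower and 4 not called, with a median of 0.16. Beside these, 19.4% of all genes were called higher and 19.7% lower. Prox1 rose by 0.68 ± 0.05, Tead1, the DNA-binding partner of YAP, by 0.64 ± 0.05, and Foxa2, a pioneer factor of endoderm, by 0.40 ± 0.05. Foxa2 had 0.51 in the line labelled ALK7, 0.46 in sh1/2 and 0.21 in the control, where it was not past the test. Pdx1, needed for pancreas formation and for beta cell function, fell by 0.38 in the mean response. Its log2 change was -0.44 in the line labelled ALK7, -0.22 in sh1/2 and -0.48 in the control, where it had 249 ± 6.21 CPM with activin B and 348 ± 6.44 CPM with DOX alone. With the GC correction 5 of these 12 were higher and 5 lower.

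Endocrine factors that act after or beside Neurog3 gave 13 tested of 18, with 4 higher, 3 lower, 6 not called and a median of 0.01. The shares of all genes were 19.4% higher and 19.7% lower. Nhlh1, a basic helix-loop-helix factor, rose by 1.12 ± 0.17 in the mean response. Its log2 change was 1.27 in the line labelled ALK7, 0.64 in sh1/2, not past the test, and 1.46 in the control, where it had 1.88 ± 0.605 CPM with activin B and 0.693 ± 0.0912 CPM with DOX alone. Etv1 fell by 0.68, Pax6, which maintains islet hormone genes, by 0.18, and Rfx6, needed for islet cell formation, by 0.18 on the log2 scale. Of these lines, Rfx6 was called in sh1/2 alone (-0.34). It had -0.19 in the line labelled ALK7 and -0.02 in the control, neither past the test. The list thus had about as many members higher as lower. With the GC correction 3 were higher and 4 lower, and with the replicate block as well 4 were higher and 6 lower.

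Paralogs of the 9 factors gave 7 tested of 15, with 3 higher, 2 lower and 2 not called, and a median of 0.04. Among all genes 19.4% were called higher and 19.7% lower. Myt1l and St18, the other MYT family genes, rose by 0.28 ± 0.04 and 0.35 ± 0.05, less than the 0.75 ± 0.03 of Myt1. St18 had 0.53 in the line labelled ALK7 and 0.54 in the control, both past the test, and -0.01 in sh1/2, not past it. Gbx1, the paralog of Gbx2, fell by 1.54 in the mean response. Its log2 change was -0.89 in the line labelled ALK7, not past the test, -1.49 in sh1/2 and -2.24 in the control. The control had 0.124 ± 0.0587 CPM with activin B and 0.572 ± 0.166 CPM with DOX alone. These are 2, 4 and 4 reads with activin B and 14, 19 and 9 with DOX alone, so its activin B level is near the limit of depth. Sox8 fell by 0.47 in the mean response. Its log2 change was -0.35 in the line labelled ALK7 and -0.21 in sh1/2, neither past the test, and -0.87 in the control, where it was called (0.879 ± 0.135 CPM with activin B, 1.63 ± 0.143 CPM with DOX alone). Of the SoxC genes, Sox12, like Sox4, was called higher in the mean response, and Sox11 was not. With the GC correction 2 paralogs were higher and 3 lower, with a median of -0.17, and Sox12 was not called (0.06, edgeR adjusted p 0.44).

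**Figure D5:**
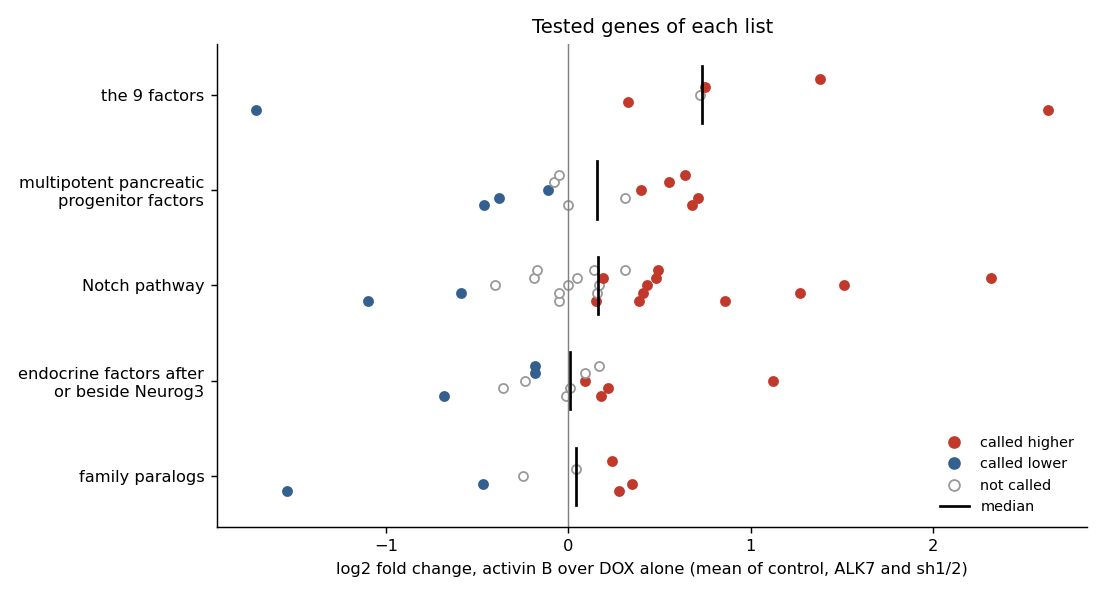
Log2 fold change of activin B over DOX alone, averaged over ALK7, sh1/2 and control, for the tested genes of the 9 factors and the 4 related lists; filled points passed the test and vertical bars are medians. The medians are 0.73 for the factors, 0.16 for the multipotent and Notch lists, 0.01 for the endocrine list and 0.04 for the paralogs.

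Finally, genes whose log2 CPM over the 30 libraries was most like that of each factor were listed, by Pearson r. These libraries share treatment, depth and composition, and the r values are a description. Pax4 was most like Fgd6 (0.987), Tph1 (0.986) and Bambi (0.984), and least like Papss2 (-0.985). Sox4 was most like Dock8 (0.969), Mex3a (0.968) and Igfbpl1 (0.967), and least like Cntnap2 (-0.967). For Myt1 the nearest were Skil (0.988), Dock8 (0.987) and Fgd6 (0.984), and the farthest Nefl (-0.974). Dock8 was thus near both Sox4 and Myt1, and Fgd6 near both Pax4 and Myt1. Insm1 was most like Setd8 (0.960), Sema6d (0.957) and Fmnl2 (0.945), and least like Fbxl2 (-0.942). Gbx2 was most like Cbs (0.972), Sdf2l1 (0.964) and Cpn1 (0.964), and least like Lurap1l (-0.974). Bambi, a decoy receptor of the TGF-β family, had a mean response of 1.61 ± 0.03, and Skil, a SMAD corepressor, 1.55 ± 0.04. Cbs, which makes cystathionine, fell by 1.68 on the log2 scale in the mean response.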

How the data were processed

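RNA of 30 libraries from 5 βTC3 lines was measured as poly(A) RNA from a stranded mRNA kit after Trizol extraction, per the labels' protocols. Per the submitters' processing notes, the authors used bcl2fastq 2.17, cutadapt 1.4.2, HISAT2 to mm10 and featureCounts 1.4.4, and the deposited integer counts per gene were used here. The HISAT2 version and strand setting are not given in the sources used here. All 30 columns of the series table equalled the single-sample files. Replicates differed with a chi-square per degree of freedom of at least 7.81, and no library was counted as a duplicate.

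Tests used edgeR 4.0.16 in R 4.3.3 (filterByExpr, TMM, 10 group means on all 30 libraries, quasi-likelihood F test, Benjamini-Hochberg over 15627 genes, threshold 0.05) for 16 contrasts. The code was tested on simulated data. Gene coordinates, exon lengths and GC content are from GENCODE M21 (GRCm38), which held 37607 of the gene IDs, and promoter windows from RefSeq GRCm38.p6. Likeness used log2 CPM with a pseudocount of 2 (0.5 as an alternative) and genes of at least 2 CPM on average, 3 named per factor.

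The members and lists were chosen with earlier results of these data known. By rule, all 9 factors and, per list, up to 4 called genes with the smallest p in the mean response are named, besides Sox12, chosen after its values were seen, and the overlapping antisense genes. Alternatives were RLE normalization, DESeq2 1.42.0, no low-count filter, only the groups compared, a replicate block, GC correction (a loess curve per library), both together, leaving out 3 GC-skewed libraries, and leaving out each replicate in turn.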

Additional observations from a re-analysis of the deposited data

Results flagged for a closer look

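The activin B response differed from that of control cells in 5 tests of an interaction term. In the line labelled ALK7, Sox4 responded more by 0.60 on the log2 scale (3.97-fold there and 2.61-fold in the control). In sh1/2, Pax4 differed by -0.81 (4.20-fold in sh1/2 and 7.39-fold in the control). Sox4 differed there by -0.63 (1.69-fold in sh1/2 and 2.61-fold in the control) and Insm1 by -0.31 (1.10-fold in sh1/2 and 1.36-fold in the control). Gbx2, which fell in both, differed by 1.34, having been 1.83-fold lower with activin B in sh1/2 and 4.62-fold lower in the control. Without the 3 GC-skewed libraries the sh1/2 difference of Pax4 was past the test, at -0.90, and those of Sox4, Insm1 and Gbx2 were not. That fit left 1 sh1/2 library with DOX alone. With a correction for GC content the Insm1 difference was -1.15 (edgeR adjusted p 0.00929).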

How the results depend on the processing

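Over 96 pairs of a factor and a contrast, 1493 of 1556 alternative values kept their side of the threshold and, where called, their direction. Another 37 were no longer past it, 24 newly passed it and 2, called in one of the fits compared, changed sign. Values called in neither fit could change sign within the 1493, as Sox11 did in ALK7-DN (-0.15 with the batch term) and Insm1 in sh1/2 (-0.47 with the GC correction). Of 578 values of the activin B responses, 563 kept their side, 4 were no longer past it and 10 newly passed it. The counts of factors called within each line stayed within 1.5 times under every alternative run. Fewer were called with only the groups compared: 0 for the response in the line labelled ALK7 minus control (1 in the fit of all libraries), 1 for sh1/2 minus control (4), 1 for ALK7 against control with activin B (2) and 0 for sh2 against control with activin B (1). Without the 3 GC-skewed libraries sh1/2 minus control gave 1. That fit left 1 sh1/2 library with DOX alone. For sh2 against control with activin B, DESeq2 and the GC correction with replicate block gave 2. Leaving out each replicate in turn gave 0 to 1 factors for ALK7 minus control, and 0 to 2 for sh2 against control with activin B. The 2 that changed sign with a call were both of Insm1: the sh1/2 response was -0.42 with both GC correction and replicate block (adjusted p 0.00636), and sh1/2 against control with activin B was -0.15 with the GC correction. The cause was not tested.

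Same-numbered libraries of a line deviated together with correlations of 0.08 to 0.33, over 0.1 in 12 of 15 pairs, and all 15 correlated best with their own number, which is a hint from the data and not the design. With a replicate block within line the factors called were 5 in sh1/2, where Insm1 passed (0.14, adjusted p 0.0185), 6 in the mean response, with Sox11 (0.70, 0.0381), and 5 for sh1/2 minus control, with Myt1 (-0.22, 0.022).

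Depth limits Sox11, Sox9, Hhex and Neurog3 and the paralog Gbx1, for which 3 counts are 0.0864 to 0.159 CPM.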

Other observations

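Hhex reads were unevenly spread: 10 of its 21 reads lay in the sh1/2 libraries with DOX alone (3, 5 and 2 reads), against 0 reads in the control libraries with DOX alone. Gbx1 was also highest in sh1/2, at 0.549 ± 0.189 CPM with activin B and 1.53 ± 0.405 CPM with DOX alone, against 0.124 ± 0.0587 CPM with activin B and 0.572 ± 0.166 CPM with DOX alone in the control (SD, n = 3 each).

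Of the 13 tested endocrine factors that act after or beside Neurog3, 8 were higher and 1 lower in sh1/2 than in the control with activin B, and 7 were higher and 0 lower with DOX alone. Over all genes, 16.9% and 18.3% were called higher and lower with activin B, and 19.4% and 18.6% with DOX alone. The differences between sh1/2 and control correlated with GC content over all genes (Spearman 0.36 with activin B and -0.36 with DOX alone, across genes), and its part was not tested.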
